A study of Mus musculus with 24 samples.

Results

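The mature miRNAs of 3 imprinted hairpins, Mir335, Mir296, and Mir298, were followed through the brains of newborn mice after hypoxic-ischemic brain injury (HIBI). The members were the 5 named rows mmu-miR-335-5p, mmu-miR-335-3p, mmu-miR-296-3p, mmu-miR-296-5p, and mmu-miR-298-5p, chosen by name among the 1531 mouse miRNAs counted in each region. All 5 were found in each of the 24 libraries. The libraries came from 8 CD1 pups of both sexes at postnatal day 9, each giving cerebellum, striatum/thalamus, and cortex from the right side of the brain. In the 4 HIBI pups (pups 1, 4, 5, and 7) the right common carotid artery was cauterized, and after 2 h with the dam the pups spent 30 min in 8% oxygen. The 4 sham pups (pups 2, 3, 6, and 8) had the same anesthesia and neck dissection with no ligation, and spent 30 min in room air away from the dam. Tissue was taken 30 min later and 200 ng of RNA went into each small RNA library. Because the carotid feeds the front of the brain, the study treated the cerebellum as a region with hypoxia and no ischemia; there was no group with hypoxia alone. The tissue is whole dissected brain, so fewer cells of a type and less RNA per cell cannot be told apart.

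Imprinted genes are read from only the maternal or only the paternal chromosome, and several of their loci carry miRNAs that the placenta and the developing brain express. Mir335 sits inside Mest, a gene read from the paternal copy and known for roles in growth and maternal behavior. Mir296 and Mir298 lie at the distal chromosome 2 imprinted domain around Gnas, which encodes the stimulatory G protein alpha subunit, and near Nespas, an antisense transcript of that domain. A miRNA hairpin is cut into a 5p and a 3p arm, of which usually one is kept in the silencing complex, and the seed of the kept arm pairs with target mRNAs. The libraries do not separate the parental alleles, so imprinting itself was not measured.

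Mature sequences are shown because the members differ sharply in base content, to which the results return. They are from RefSeq (GRCm38.p6), written 5′ to 3′, with the seed (bases 2 to 8) in capitals.

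mmu-miR-335-5p: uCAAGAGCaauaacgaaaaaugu

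mmu-miR-335-3p: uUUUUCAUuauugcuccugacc

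mmu-miR-296-3p: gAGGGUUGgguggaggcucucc

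mmu-miR-296-5p: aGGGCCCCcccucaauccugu

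mmu-miR-298-5p: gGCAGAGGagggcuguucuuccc

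The 5 seeds all differed, and no other mature mouse miRNA in the RefSeq table had the seed of any of them. The arms of miR-335 had a GC content of 30.4% (5p) and 36.4% (3p), with 12 A among the 23 bases of the 5p arm and 11 U among the 22 bases of the 3p arm. The other members were rich in G and C, at 68.2% for miR-296-3p, 66.7% for miR-296-5p, and 65.2% for miR-298-5p, where the median over 1679 mature mouse miRNAs was 52.2%. The hairpins, shown with both annotated arms in capitals, place these arms.

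Mir335: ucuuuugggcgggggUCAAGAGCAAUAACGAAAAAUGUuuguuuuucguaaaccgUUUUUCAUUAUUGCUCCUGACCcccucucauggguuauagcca

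Mir296: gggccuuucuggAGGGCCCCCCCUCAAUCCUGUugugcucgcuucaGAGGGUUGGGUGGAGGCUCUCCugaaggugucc

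Mir298: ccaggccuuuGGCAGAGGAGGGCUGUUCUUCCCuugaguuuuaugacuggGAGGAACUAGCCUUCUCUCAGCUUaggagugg

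Mir335 is at chr6:30741299-30741396 on the plus strand, within introns of Mest in GENCODE M21 (7 Mest transcripts span it and 0 exons overlap it). Its 5p arm is at chr6:30741314-30741336 and its 3p arm at chr6:30741354-30741375. Mir296 (chr2:174267047-174267125) and Mir298 (chr2:174267504-174267585) are both on the minus strand with 378 bases between them. No other gene of that annotation covers either hairpin, and Nespas ends 13651 bases upstream of Mir298 on the same strand. The arm miR-296-5p is at chr2:174267093-174267113, miR-296-3p at chr2:174267058-174267079, and miR-298-5p at chr2:174267553-174267575.

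miR-298-5p dominated the group. It averaged 3229 CPM (reads of a miRNA per 1000000 reads on mouse miRNAs) over the 24 libraries and ranked 44th of the 1531 miRNAs. miR-335-5p averaged 392 CPM, miR-296-5p 292 CPM, miR-335-3p 257 CPM, and miR-296-3p 102 CPM, which placed them between rank 144 and rank 226. These levels count reads, with no correction for how well each arm is ligated or amplified. All further levels are CPM after trimmed mean of M-values (TMM) scaling over the 24 libraries. miR-298-5p varied least from its lowest to its highest library (2.54-fold, 1947 to 4942 CPM) and miR-335-5p most (6.27-fold, 192 to 1202 CPM).

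The partner arm of the most abundant member was almost absent. mmu-miR-298-3p had 5 reads in all 24 libraries together, against 169394 reads of miR-298-5p. It had 3 reads in cortex of sham pup 6, 1 in cortex of HIBI pup 7, and 1 in cerebellum of HIBI pup 7, and 0 elsewhere. A library with 0 reads allows up to 3 reads by counting error. By contrast, both arms of Mir335 and of Mir296 were well counted, and the lowest count of any member in any library was 82 (miR-296-3p, striatum/thalamus of HIBI pup 5).

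The libraries held 1254185 to 3406624 reads on mouse miRNAs. Neural miRNAs (5 of 5 listed) summed to between 82421 and 235305 CPM in every library. Muscle miRNAs (miR-1a, miR-133, and miR-206, known for skeletal muscle) summed to 350 to 653 CPM in cerebellum and to 28.4 to 141 CPM elsewhere. Erythrocyte miRNAs (miR-451a, miR-144, miR-486a) summed to 736 to 1338 CPM in sham cerebellum and 594 to 797 CPM in HIBI cerebellum. The lists for choroid plexus, myeloid, and endothelial or mural cells had ranges that overlapped between HIBI and sham in all regions, with myeloid miR-142a at 0 in some libraries of every group.

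In cerebellum, miR-296-3p was lower after HIBI. The sham libraries held 188, 142, 125, and 147 CPM in pups 2, 3, 6, and 8. The HIBI libraries held 75.9, 127, 77.5, and 74.1 CPM in pups 1, 4, 5, and 7. Of the HIBI libraries, 3 lay below every sham library, and only pup 4 reached into the sham range. The means were 88.7 ± 25.8 CPM for HIBI and 150 ± 26.7 CPM for sham (SD, n = 4 each). The log2 fold change was -0.74 (SE 0.25) in edgeR's quasi-likelihood test, with an unadjusted p of 0.0110 and a Benjamini-Hochberg adjusted p of 0.432. It met the study's criteria of an unadjusted p under 0.05 with a change of more than 1.5-fold, and did not pass the adjustment over the 434 miRNAs tested. An exact permutation test of the log2 level gave p = 0.0571, where 4 against 4 libraries can go no lower than 0.0286, and p = 0.0286 without pup 4. With library size in place of TMM the log2 fold change was -0.58, short of the fold criterion. The erythrocyte list (4 of 4 detected, miR-144-3p at 0 in some HIBI libraries) moved the same way between these groups, and its part in the result was not tested.

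Among the members, miR-296-3p was the 1 of 5 called in cerebellum by those criteria, beside 7.83% of all 434 miRNAs tested (34 called, 16 higher and 18 lower). With library size alone the split was 41 higher and 10 lower, since that scaling raised the mean difference of HIBI from sham in cerebellum by 0.18 on the log2 scale for each miRNA. No member had HIBI and sham groups free of overlap, where 3.92% of all miRNAs did in cerebellum.

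The partner arm did not move with it. miR-296-5p held 257, 248, 201, and 241 CPM in the cerebellum of sham pups 2, 3, 6, and 8. It held 437, 249, 183, and 169 CPM in HIBI pups 1, 4, 5, and 7, on both sides of the sham libraries. The log2 fold change was 0.17 (SE 0.31, adjusted p = 0.769 in edgeR). Without pup 1 its sign turned, to -0.25.

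**Figure D1:**
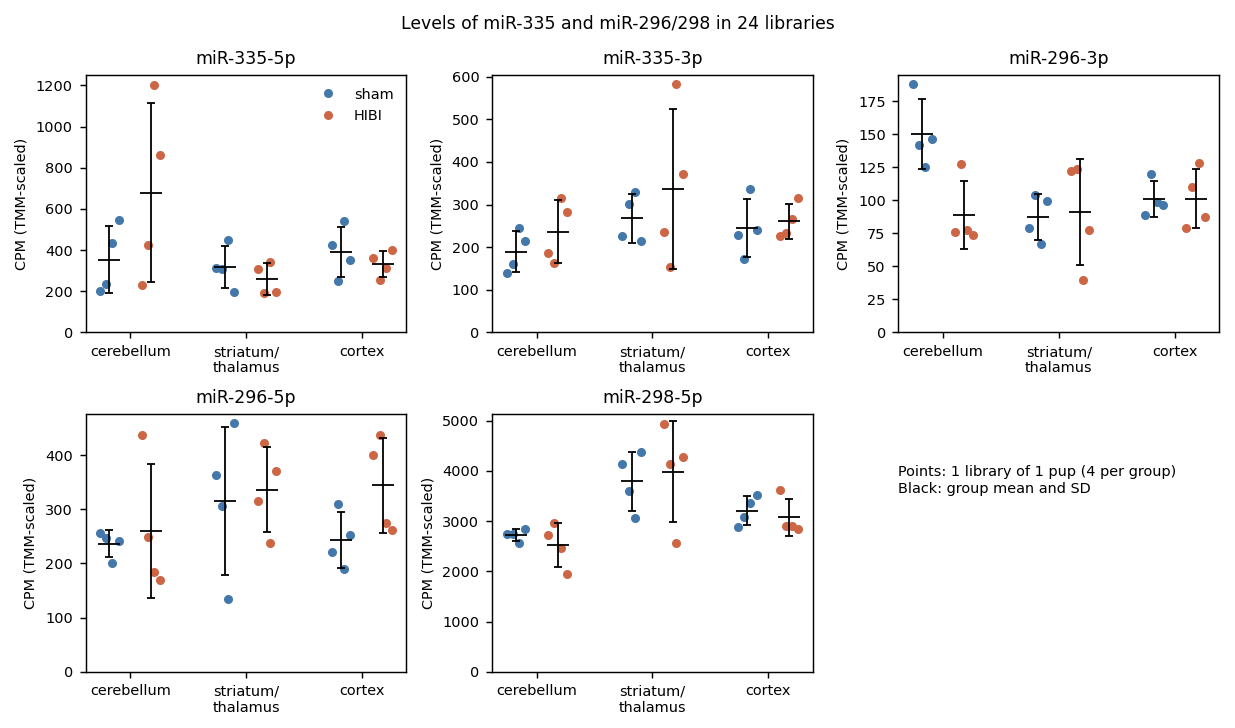
Level of each member in CPM after TMM scaling (vertical axes, each from 0) in cerebellum, striatum/thalamus, and cortex, with sham in blue and HIBI in orange; points are libraries and black marks are the mean and SD of 4. In cerebellum the HIBI points of miR-296-3p lie at 74.1 to 127 CPM and the sham points at 125 to 188 CPM, and the HIBI points of miR-335-5p spread from 230 to 1202 CPM.

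The ratio of the 2 arms of Mir296 is taken within a library, so scaling cannot change it. In sham cerebellum the reads of miR-296-3p were 0.733, 0.572, 0.623, and 0.609 of those of miR-296-5p in pups 2, 3, 6, and 8. In HIBI cerebellum they were 0.175, 0.512, 0.424, and 0.441 in pups 1, 4, 5, and 7. All 4 HIBI libraries lay below all 4 sham libraries, with pup 1 far below the rest. On the log2 scale the ratio was -1.48 ± 0.70 in HIBI and -0.66 ± 0.15 in sham (SD, n = 4 each), a difference of -0.81. An exact two-sided permutation test gave p = 0.0286, the smallest this design allows, and p = 0.129 after Benjamini-Hochberg adjustment over the 9 ratio tests of HIBI against sham. Without pup 1 the difference was -0.47, with the groups still apart. The exact p stayed at 0.0286 without any 1 HIBI pup and was 0.0571 without any 1 sham pup. The reads of miR-298-5p, made from the neighboring hairpin, also stood further above those of miR-296-3p in HIBI cerebellum. The ratio was 35.7, 23.2, 31.5, and 26.1 in HIBI pups 1, 4, 5, and 7 and 14.6, 19.3, 20.4, and 19.4 in sham pups 2, 3, 6, and 8. These groups did not overlap either (log2 difference 0.65, exact permutation p = 0.0286, adjusted 0.129). Both ratios share the reads of miR-296-3p and are not separate evidence.

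In striatum/thalamus and cortex miR-296-3p did not differ detectably between HIBI and sham. In striatum/thalamus it averaged 90.9 ± 40.2 CPM in HIBI and 87.4 ± 17.5 CPM in sham (SD, n = 4 each), with the lowest library of all, 39.8 CPM, in HIBI pup 5. In cortex it averaged 101 ± 22.3 CPM in HIBI and 101 ± 13.4 CPM in sham. The log2 fold changes were -0.05 (SE 0.34) and 0.01 (SE 0.20), with adjusted p = 0.992 and 0.989 in edgeR. The injury effect in striatum/thalamus and cortex exceeded that in cerebellum by 0.79 (SE 0.34, unadjusted p = 0.0309, adjusted p = 0.255 in edgeR), so a difference between regions did not pass adjustment. For this contrast 0% of 435 miRNAs passed an adjusted p under 0.05 in edgeR, and 70 had an unadjusted p under 0.05.

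miR-296-5p was the member with the largest HIBI difference in cortex. It held 221, 311, 190, and 252 CPM in sham pups 2, 3, 6, and 8 and 401, 438, 275, and 262 CPM in HIBI pups 1, 4, 5, and 7. HIBI pups 1 and 4 lay above every sham library, and pups 5 and 7 lay within the sham range. The log2 fold change was 0.51 (SE 0.22, unadjusted p = 0.0391, adjusted p = 0.914 in edgeR), below the 1.5-fold criterion. It passed both criteria without pup 3 (0.66), without pup 5 (0.61), and without pup 7 (0.63). None of the 5 members was called in cortex, where 3.41% of 410 miRNAs were and 3.41% had groups free of overlap. None was called in striatum/thalamus either, where 2.75% of 436 miRNAs were and 1.83% had groups free of overlap. In striatum/thalamus miR-296-5p spanned 135 to 460 CPM in sham and 238 to 422 CPM in HIBI (log2 fold change -0.0032, SE 0.33).

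**Figure D2:**
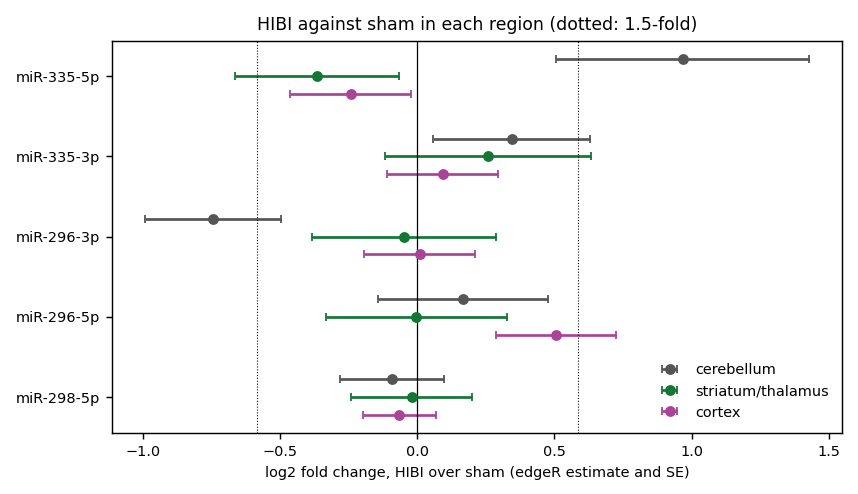
Log2 fold change of HIBI over sham (horizontal axis) for each member in cerebellum (grey), striatum/thalamus (green), and cortex (purple); points are edgeR estimates from 4 against 4 libraries, bars are 1 SE, and dotted lines mark a 1.5-fold change. miR-335-5p (0.97) and miR-296-3p (-0.74) in cerebellum are the estimates past the dotted lines, and the miR-298-5p estimates lie between -0.09 and -0.02.

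miR-335-5p had its highest libraries in HIBI cerebellum, with a wide spread. Sham cerebellum held 200 (pup 2), 236 (pup 3), 432 (pup 6), and 545 CPM (pup 8). HIBI cerebellum held 230, 425, 1202, and 860 CPM in pups 1, 4, 5, and 7. HIBI pups 5 and 7 lay above every sham library, while pups 1 and 4 lay inside the sham range. The log2 fold change was 0.97 (SE 0.46, unadjusted p = 0.0578, adjusted p = 0.432 in edgeR), and the exact permutation p was 0.314. It was 0.54 without pup 5. It met both criteria without pup 1 (1.25), pup 4 (1.16), or pup 8 (1.17), and with DESeq2 (0.96), the edgeR exact test (0.97), and library size only (1.09), averages above 1 CPM (0.98), and no CPM minimum (0.93).

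The other arm of the hairpin differed less. miR-335-3p averaged 236 ± 73.9 CPM in HIBI cerebellum and 189 ± 48.5 CPM in sham cerebellum (SD, n = 4 each), a log2 fold change of 0.34 (SE 0.29, adjusted p = 0.560 in edgeR). In striatum/thalamus it averaged 336 ± 188 CPM in HIBI and 268 ± 56.9 CPM in sham, with 583 CPM in HIBI pup 5. Without pup 5 the log2 fold change there went from 0.26 (SE 0.38) to -0.16. In cortex it averaged 260 ± 40.8 CPM in HIBI and 244 ± 68.0 CPM in sham (log2 fold change 0.09, SE 0.20).

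Outside the cerebellum miR-335-5p was slightly lower in HIBI means, within the spread of the libraries. It averaged 260 ± 78.2 CPM in HIBI and 317 ± 103 CPM in sham striatum/thalamus (log2 fold change -0.37, SE 0.30). In cortex the means were 333 ± 63.3 CPM in HIBI and 392 ± 123 CPM in sham (log2 fold change -0.24, SE 0.22). The injury effect there minus that in cerebellum was -1.20 (SE 0.48, unadjusted p = 0.0187, adjusted p = 0.227 in edgeR). That difference did not pass adjustment over the 435 miRNAs. In striatum/thalamus the study also measured this miRNA by quantitative PCR. The study reported a lower level after HIBI there, both by quantitative PCR and by its sequencing. The quantitative PCR values were not used here.

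miR-298-5p differed little between HIBI and sham in all 3 regions. In cerebellum it held 2753, 2751, 2565, and 2850 CPM in sham pups 2, 3, 6, and 8, and 2731, 2967, 2458, and 1947 CPM in HIBI pups 1, 4, 5, and 7. The log2 fold changes were -0.09 (SE 0.19) in cerebellum, -0.02 (SE 0.22) in striatum/thalamus, and -0.07 (SE 0.13) in cortex. No estimate was larger than its SE, and library size alone turned the sign in cerebellum (0.08) and striatum/thalamus (0.04).

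Across regions, the group means of miR-298-5p followed an order in sham and in HIBI pups: highest in striatum/thalamus, then cortex, then cerebellum. Striatum/thalamus averaged 3792 ± 584 CPM in sham and 3982 ± 1004 CPM in HIBI (SD, n = 4 each), with the individual libraries at 4133, 3608, 3058, and 4370 CPM in sham pups 2, 3, 6, and 8. The HIBI libraries of striatum/thalamus held 4942, 4145, 2570, and 4272 CPM in pups 1, 4, 5, and 7. Cortex averaged 3211 ± 290 CPM in sham and 3073 ± 371 CPM in HIBI, and cerebellum 2730 ± 119 and 2526 ± 438 CPM. Within a pup, striatum/thalamus was above cerebellum in 8 of 8 pups (mean log2 difference 0.55, SD 0.34), with an exact sign-flip permutation p of 0.0078, the smallest that 8 pups allow. Cortex was above cerebellum in 7 of 8 pups (0.26, SD 0.19, exact p = 0.0156), and striatum/thalamus above cortex in 6 of 8 (0.29, SD 0.30, exact p = 0.0469). These exact p-values are not adjusted for the 15 tests of levels between regions, of which 5 had a p under 0.05. The step from cortex to striatum/thalamus was the weakest, with p between 0.0781 and 0.0938 once pup 1, 2, 3, 4, 7, or 8 was left out. In the fit over all miRNAs, striatum/thalamus exceeded cerebellum by 0.47 (SE 0.18, adjusted p = 0.0241) in sham pups and 0.66 (SE 0.18, adjusted p = 0.0031) in HIBI pups, both by edgeR. The sham difference did not pass without pup 2 (0.43) or pup 8 (0.42), nor the HIBI difference without pup 1 (0.51) or pup 7 (0.52).

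miR-296-3p, made from the neighboring hairpin, had a different order in sham pups. Cerebellum was highest there at 150 ± 26.7 CPM, followed by cortex at 101 ± 13.4 CPM and striatum/thalamus at 87.4 ± 17.5 CPM (SD, n = 4 each). Striatum/thalamus was below cerebellum by 0.78 (SE 0.28, adjusted p = 0.0194 in edgeR), which did not pass without pup 2 (-0.62) or pup 6 (-0.76). The step between cortex and striatum/thalamus was within the error (-0.21, SE 0.28). In HIBI pups the cerebellum was not above the other regions (0.03, SE 0.28, for striatum/thalamus minus cerebellum). Within all 8 pups, striatum/thalamus minus cerebellum of miR-296-3p averaged -0.42 on the log2 scale (exact sign-flip permutation p = 0.117). Cortex minus cerebellum averaged -0.18 (exact sign-flip permutation p = 0.375). The ratio of miR-298-5p to miR-296-3p was higher in striatum/thalamus than in cerebellum in 8 of 8 pups (mean log2 difference 0.97, SD 0.49, exact sign-flip permutation p = 0.0078, adjusted p = 0.0469 over 9 ratio tests). For cortex minus cerebellum that ratio differed by 0.80 in sham pups and by 0.09 in HIBI pups.

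miR-335-5p had no regional order in sham pups that exceeded the error, with means of 354 ± 164 CPM in cerebellum, 317 ± 103 CPM in striatum/thalamus, and 392 ± 123 CPM in cortex (SD, n = 4 each). In HIBI pups the means of miR-335-5p were lower outside the cerebellum. Pup 1 went the other way, with 230 CPM in cerebellum, 310 in striatum/thalamus, and 360 in cortex. Striatum/thalamus minus cerebellum was -1.38 on the log2 scale (SE 0.40, adjusted p = 0.0045 in edgeR), and cortex minus cerebellum was -1.03 (SE 0.39, adjusted p = 0.0425 in edgeR). The cortex difference was lost with a replicate block for the pup (-0.88) and without pup 4 (-1.09), pup 5 (-0.59), or pup 7 (-1.01), and the striatum/thalamus difference without pup 7 (-1.13). Within all 8 pups, sign-flip permutation gave miR-335-5p exact p = 0.148 for striatum/thalamus and 0.453 for cortex, each against cerebellum. By that test miR-335-3p was above cerebellum in 7 of 8 pups for striatum/thalamus (mean log2 difference 0.45, SD 0.37, exact p = 0.0234) and in 7 of 8 for cortex (0.27, SD 0.29, exact p = 0.0391). Neither p-value for miR-335-3p is adjusted for the 15 tests of levels between regions. In HIBI pups alone miR-335-3p did not pass in edgeR for striatum/thalamus (0.51, adjusted p = 0.174) or cortex (0.14, adjusted p = 0.725). The within-pup cortex difference of miR-335-3p did not pass with any pup but pup 5 left out (exact p from 0.0625 to 0.0781), nor with library size only (0.22, exact p = 0.188). With a replicate block, striatum/thalamus exceeded cerebellum for miR-335-3p in sham pups by 0.52 (SE 0.23, adjusted p = 0.0476 in edgeR), where it had missed the threshold without the block (0.50, SE 0.31, adjusted p = 0.162).

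The arm ratio of Mir335 differed between regions. In cerebellum miR-335-3p had 0.262 to 0.808 of the reads of miR-335-5p over the 8 pups, so the 5p arm led in every library. In striatum/thalamus the ratio ran from 0.716 to 1.89, and the 3p arm led in sham pup 8 (1.09) and HIBI pups 5 (1.69) and 7 (1.89). The ratio was higher in striatum/thalamus than in cerebellum in 7 of 8 pups (mean log2 difference 1.08, SD 1.07, exact p = 0.0234, adjusted 0.0527). It was higher in striatum/thalamus than in cortex in 7 of 8 pups as well (0.52, SD 0.46, exact p = 0.0156, adjusted 0.0469 over the 9 ratio tests between regions). Between HIBI and sham the ratio did not pass in any region (exact permutation p = 0.286 in cerebellum and in striatum/thalamus and 0.0857 in cortex), but without pup 1 it was higher in HIBI cortex by 0.43 (exact permutation p = 0.0286).

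**Figure D3:**
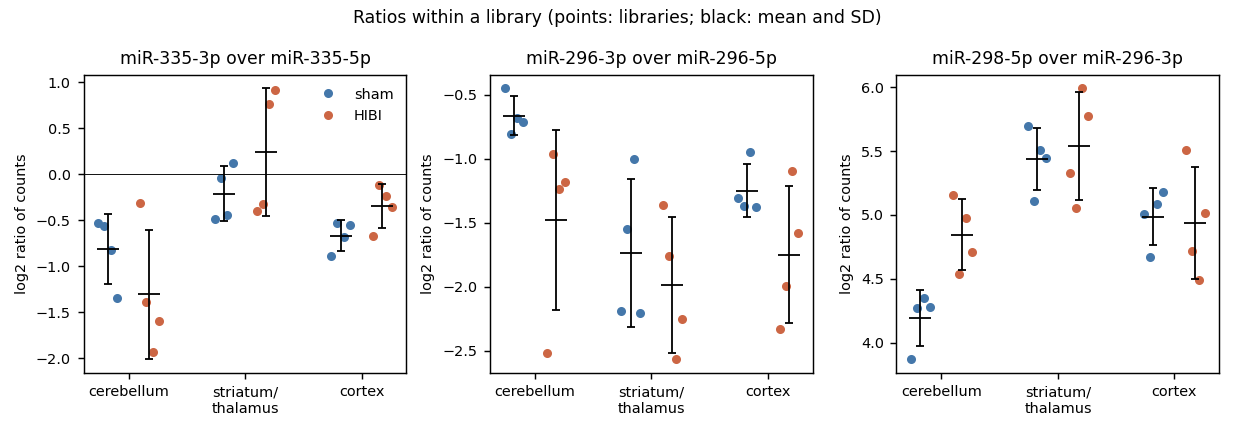
Log2 ratio of the counts of 2 members within each library (vertical axes) by region, with sham in blue and HIBI in orange; points are libraries and black marks are the mean and SD of 4. For miR-296-3p over miR-296-5p in cerebellum the HIBI libraries lie at -2.52 to -0.97 and the sham libraries at -0.81 to -0.45, and for miR-335-3p over miR-335-5p the values above 0 are all in striatum/thalamus.

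The counts of members called between regions are read against a broad background. In sham pups 2 of 5 members passed for striatum/thalamus minus cerebellum (62.8% of 435 miRNAs), 0 for cortex minus cerebellum (58.6%), and 0 for striatum/thalamus minus cortex (33.1%). In HIBI pups 2 passed for striatum/thalamus minus cerebellum (55.4%), 1 for cortex minus cerebellum (36.1%), and 0 for striatum/thalamus minus cortex (37.9%). The members passed no more often than miRNAs at large: the highest count was 2 of 5, for striatum/thalamus minus cerebellum in each group of pups.

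Within groups, the levels of the members varied with a GC trend seen in the other miRNAs of each library. For each library the slope of log2 CPM, as a deviation from each miRNA's mean, on GC content was measured over 366 expressed miRNAs outside the group. A slope above 0 means that GC-rich miRNAs were relatively high in that library. The slope was lowest in the cerebellum of HIBI pups 5 (-0.45 per 10 points of GC) and 7 (-0.42) and highest in the striatum/thalamus of HIBI pups 4 (0.52) and 1 (0.45). In cerebellum it was 0.12, -0.13, -0.45, and -0.42 in HIBI pups 1, 4, 5, and 7 and -0.02, 0.02, -0.19, and -0.23 in sham pups 2, 3, 6, and 8. Over the 24 libraries, which share pups and regions, Pearson's r with this slope was -0.78 for miR-335-5p, 0.86 for miR-298-5p, and 0.78 for miR-296-5p. It was -0.27 for miR-335-3p and 0.11 for miR-296-3p. Within groups, after subtracting each group's mean, r was -0.76 and -0.84 for miR-335-5p and miR-335-3p and 0.55, 0.85, and 0.78 for miR-296-3p, miR-296-5p, and miR-298-5p. The 2 AU-rich members thus went against the slope and the 3 GC-rich members with it.

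**Figure D4:**
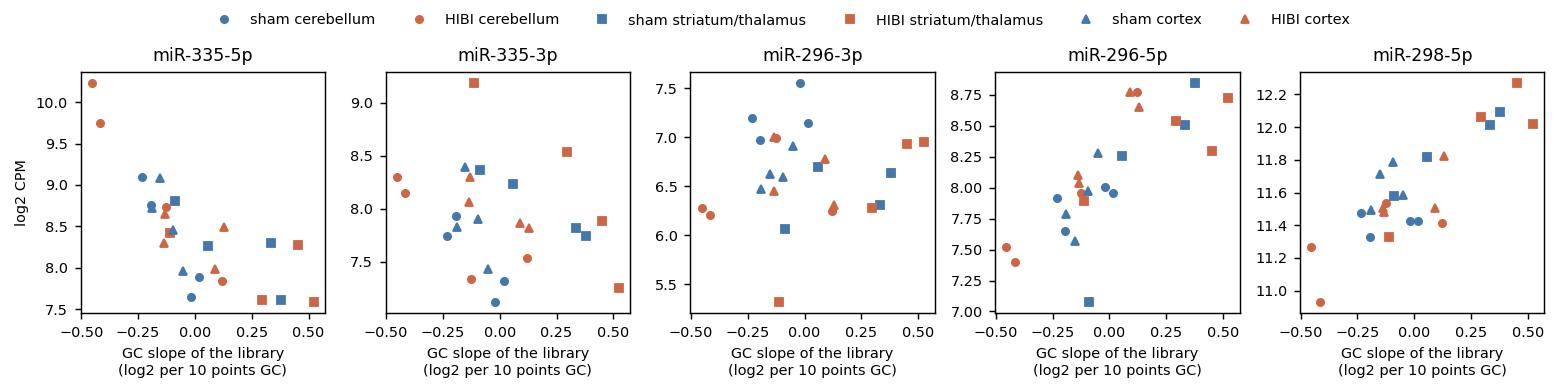
Level of each member (log2 CPM, vertical axes) against the GC slope of the library (log2 per 10 points of GC, horizontal axes) in 24 libraries, with sham in blue, HIBI in orange, circles for cerebellum, squares for striatum/thalamus, and triangles for cortex. miR-335-5p falls with the slope (r = -0.78) while miR-296-5p (0.78) and miR-298-5p (0.86) rise with it, and miR-296-3p shows little relation (0.11).

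With the slope as a covariate, a fit chosen after seeing the data, the cerebellar difference of miR-296-3p between HIBI and sham was -0.67 (SE 0.23, unadjusted p = 0.0143, adjusted p = 0.343 in edgeR). The cerebellar difference of miR-335-5p went from 0.97 to 0.35 (SE 0.19), and the cortical difference of miR-296-5p from 0.51 to 0.17 (SE 0.17). Between regions, with a replicate block for the pup as well, miR-335-5p in striatum/thalamus minus cerebellum of HIBI pups went from -1.38 to 0.22 (SE 0.52). In the same fit miR-298-5p for that contrast went from 0.66 to 0.17 (SE 0.25) in HIBI pups and from 0.47 to 0.21 (SE 0.18) in sham pups, so that neither call held (adjusted p = 0.655 and 0.321 in edgeR). miR-335-3p for that contrast grew instead and passed, from 0.50 to 0.92 (SE 0.24, adjusted p = 0.0031) in sham pups and from 0.51 to 1.15 (SE 0.32, adjusted p = 0.0157) in HIBI pups. miR-296-3p in sham pups was -1.09 (SE 0.33, adjusted p = 0.0102). The same fit also changed the injury effect in striatum/thalamus and cortex minus that in cerebellum. It went from 0.79 to 0.55 (SE 0.36) for miR-296-3p and from -1.20 to -0.45 (SE 0.39) for miR-335-5p. With the slope as a covariate within striatum/thalamus, miR-296-3p went from -0.05 to -0.38 (SE 0.26) for HIBI against sham. Whether the slope is set by the tissue or by the making of the libraries was not tested.

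The arms of a hairpin, and the members of a locus, varied together within groups. After subtracting group means, r over the 24 libraries was 0.67 between the arms of miR-335, 0.39 between the arms of miR-296, 0.63 between miR-298-5p and miR-296-3p, and 0.61 between miR-298-5p and miR-296-5p. Between the loci all 6 values were below 0, from -0.77 to -0.37. These are descriptions over libraries that share pups and the GC slope above.

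The miRNAs whose log2 CPM was most like each member's over the 24 libraries were sought among the 435 miRNAs that averaged above 10 CPM. The 5 members were left out of this search and miR-298-3p was below 10 CPM, so no match could come from these hairpins. For miR-335-5p they were miR-384-3p (Pearson's r 0.83), miR-98-5p (0.82), a let-7 family member, and miR-135b-5p (0.79). For miR-335-3p they were miR-598-3p (0.82), miR-7b-5p (0.80), and miR-1839-5p (0.79). miR-296-3p had the loosest matches, in miR-128-2-5p (0.66), miR-151-3p (0.63), and miR-18a-3p (0.62). miR-296-5p was most like miR-874-3p (0.78), miR-6937-5p (0.77), and miR-331-3p (0.77). miR-298-5p was most like miR-760-3p (0.87), miR-125b-1-3p (0.87), and miR-504-5p (0.87).

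Other imprinted miRNAs gave the same comparison a wider frame. The list held 112 rows, most of them from the Dlk1-Dio3 cluster, a maternally expressed group of miRNAs abundant in brain, with miR-675 of H19 and miR-483 of Igf2. In cerebellum 4 of the 62 listed miRNAs tested were called higher after HIBI and 0 lower, with a median log2 fold change of 0.46 beside 0.11 over all miRNAs. The shares of the list called were 6.45% in cerebellum, 1.35% in striatum/thalamus, and 1.43% in cortex, below the 7.83%, 2.75%, and 3.41% of all miRNAs. In striatum/thalamus 1 of 74 was called higher and 0 lower (median -0.09 beside -0.03), and in cortex 1 of 70 higher and 0 lower (median -0.08 beside -0.02). The listed miRNA with the smallest p was miR-410-5p in cerebellum, at 42.2 ± 10.9 CPM in HIBI and 21.6 ± 11.0 CPM in sham (SD, n = 4 each). Its log2 fold change was 0.99 (SE 0.39, adjusted p = 0.432 in edgeR). In striatum/thalamus it was miR-668-5p (1.11, SE 0.35) and in cortex miR-154-3p (0.54, SE 0.20, below 1.5-fold). In the lower direction the smallest p values belonged to miR-431-3p in cerebellum (-0.17, SE 0.37), miR-379-5p in striatum/thalamus (-0.51, SE 0.21), and miR-370-3p in cortex (-0.29, SE 0.14). The miRNAs of H19 and Igf2 were scarce, with 2 reads of miR-675-3p, 25 of miR-483-3p, and 436 of miR-483-5p over the 24 libraries.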

How the data were processed

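MiRNA-Seq libraries of cerebellum, striatum/thalamus, and cortex from 4 HIBI and 4 sham pups (24 libraries) were analysed. The authors used bowtie2 against miRBase's mature miRNAs of the mouse, and their deposited values are raw counts per mature miRNA; versions, the miRBase release, and the rule for reads with several matches are not given in the sources used here. The deposited tables also hold the authors' own edgeR comparison, as log2 fold changes, average log2 CPM, p-values, and false discovery rates, which were not used. The 20 castor bean entries (84 counts, 0.000156% of counts) were left out. Library sizes were totals over the 1531 mouse entries, 1254185 to 3406624. p-values of HIBI against sham and of the exact tests measure the spread between pups. Those of the region and interaction contrasts in edgeR measure the spread between libraries, taken as independent although each pup gave several. Intervals from counting cover counting error only.

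Groups came from the sample labels. Counts were fitted with edgeR 4.0.16 in R 4.3.3 (TMM, quasi-likelihood test, miRNAs averaging above 10 CPM, and Benjamini-Hochberg adjustment over all miRNAs tested). HIBI was compared with sham within each region, with a call at an unadjusted p under 0.05 and more than 1.5-fold change, the criteria of the study. Region and interaction contrasts were fitted over all 24 libraries with no term for the pup in the main fit, and with a call at an adjusted p under 0.05. Levels used log2(CPM + 1) and ratios log2 of counts with 1 added, in two-sided exact permutation tests of 4 against 4 libraries (70 arrangements) or sign flips within 8 pups (256). There were 15 tests of levels and 9 of ratios of each kind, and the p-values of the level tests were not adjusted. The fits were tested on simulated data. Alternatives were DESeq2 1.42.0, other scalings, minimums, and pseudocounts, each pup left out, the edgeR exact test, a replicate block, and, chosen after seeing the data, a GC slope covariate.

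Regions of 1 pup were paired by the labels' pup number. The median correlation of their deviations over 435 miRNAs was 0.269 for cortex and cerebellum (above 0.1 in 7 of 8 pups), 0.160 for striatum/thalamus and cerebellum, and 0.190 for striatum/thalamus and cortex (5 of 8 each). No 2 replicate libraries agreed within sampling noise. RefSeq sequences were found for 1291 of the 1531 entries and for all 5 members. Named miRNAs were the members, miR-298-3p, the 3 miRNAs most like each member, and the other imprinted miRNA with the smallest p in each direction of each HIBI comparison. The members, lists, and tests were chosen with earlier results of these data known.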

Additional observations from a re-analysis of the deposited data

Results flagged for a closer look

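Of 48 groups of 4 libraries examined for a library far from the others, 4 had one by Dixon's criterion (the gap to the nearest library over the range of the group), and chance gives about 1 in 20 groups. miR-296-3p in HIBI cerebellum was 127.3 CPM in pup 4, against 74.1 to 77.5 CPM in the other 3 pups. miR-298-5p in HIBI cortex was 3628 CPM in pup 1, against 2852 to 2905 CPM. The log2 ratio of miR-296-3p to miR-296-5p in sham cortex was -0.95 in pup 6, against -1.38 to -1.31. The log2 ratio of miR-298-5p to miR-296-3p in sham cerebellum was 3.87 in pup 2, against 4.27 to 4.35.

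The effect of region on the ratio of miR-298-5p to miR-296-3p differed between HIBI and sham pups. For cortex minus cerebellum it was 0.09 in HIBI pups and 0.80 in sham pups, a difference of -0.71 with an exact permutation p of 0.0286, the smallest 4 against 4 pups allow. After Benjamini-Hochberg adjustment over the 9 such differences it did not pass (0.257).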

How the results depend on the processing

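The number of members called in cerebellum was 1, and 2 with averages above 1 CPM, no CPM minimum, DESeq2, and the edgeR exact test. With library size only the count stayed at 1, but miR-296-3p was lost (-0.58) and miR-335-5p passed in its place (1.09). Leaving out each pup gave 1 to 2 in cerebellum, 0 to 1 in cortex, 0 to 1 for cortex minus cerebellum in sham and in HIBI pups, 0 to 2 for striatum/thalamus minus cerebellum in sham and in HIBI pups, 0 to 1 for striatum/thalamus minus cortex in HIBI pups, and 3 to 5 of the 15 within-pup tests of levels. By exact tests of HIBI against sham it gave 0 to 1 of 15 levels and 0 to 3 of 9 ratios, the ratio of miR-296-3p to miR-296-5p in cortex passing without pup 5 (-0.72). With no CPM minimum 0 members passed for striatum/thalamus minus cerebellum in sham pups, 1 in HIBI pups, and 1 (miR-335-5p, -1.33) for the interaction. With the replicate block 0 passed for cortex minus cerebellum in HIBI pups, and with the block and GC slope 0 for that contrast. With the block and GC slope, both members called for striatum/thalamus minus cerebellum in HIBI pups were lost (miR-335-5p turned to 0.22, miR-298-5p 0.17) and 1 other passed (miR-335-3p, 1.15). In sham pups the count stayed at 2, with miR-298-5p lost (0.21) and miR-335-3p gained (0.92). With the block alone miR-335-3p also passed for striatum/thalamus minus cerebellum in sham pups (0.52), and the block alone changed no other call of a member. Estimates near 0 changed sign: miR-298-5p in cerebellum with library size only (0.075), and in striatum/thalamus miR-296-3p, miR-296-5p, and miR-298-5p with RLE factors (0.0089, 0.041, 0.028), library size only (0.0054, 0.029, 0.039), and DESeq2 (0.0082, 0.041, 0.028), and miR-296-5p with averages above 1 CPM (0.0028). Leaving out each pup, the log2 fold changes ran from -0.25 to 0.33 (miR-296-5p) and -0.16 to 0.013 (miR-298-5p) in cerebellum. In striatum/thalamus they ran from -0.16 to 0.57 (miR-335-3p), -0.14 to 0.19 (miR-296-3p), -0.16 to 0.35 (miR-296-5p), and -0.064 to 0.16 (miR-298-5p). In cortex they ran from -0.012 to 0.29 (miR-335-3p) and -0.12 to 0.12 (miR-296-3p). The ratio of miR-298-5p to miR-296-3p ran from -0.053 to 0.26 in striatum/thalamus and -0.24 to 0.093 in cortex. The cause of these changes was not tested. With 1 pup left out, 3 against 4 libraries cannot reach an exact p under 0.0286.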
